A study of Mus musculus with 8 samples.

Results

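The genes described here are 10 members of the STING trafficking and kinase axis, chosen by symbol from tables that listed 55359 genes: Sting1, Cgas, Tbk1, Ikbke, Irf3, Surf4, Copa, Tmed2, Zdhhc3 and Trim56. All 10 were found, and all 10 passed the filter for testing, which asked 4 or more samples to reach an FPKM of 1. FPKM is a fragment count scaled by gene length and by the size of the library. RNA sequencing covered mouse thymocytes sorted at the CD4 and CD8 double positive (DP) stage with absent to intermediate surface TCR beta, from mice 5 weeks old. The 4 Lck-cre samples (replicates 5 to 8, genotype LSL-Sting1-N153S;Lck-cre) carried Cre recombinase under the Lck promoter, a promoter of early T cell development. The 4 control samples (replicates 1 to 4, genotype LSL-Sting1-N153S/+) had no Cre. Every sample therefore carried the N153S allele, a gain-of-function form of STING behind a stop cassette flanked by loxP sites. Each group held 1 female and 3 males. The labels do not say whether a sample was 1 animal or a pool, and the p-values therefore reflect the spread among these 8 samples, which may be technical.

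STING sits in the membrane of the endoplasmic reticulum (ER), where it binds cyclic GMP-AMP made by the DNA sensor cGAS. Bound STING moves to the Golgi in COPII vesicles, is palmitoylated there and recruits the kinase TBK1, which phosphorylates STING itself and the transcription factor IRF3. COPI vesicles and their cargo receptors return STING to the ER and so limit signalling at rest. In T cells, sustained STING activity is known to restrain proliferation and to promote cell death, beside its interferon response.

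The sum of FPKM per sample was 437778 to 457145 in the Lck-cre samples and 413835 to 437426 in the controls. No read counts were used, and the depth is unknown. Within a group, Pearson r between pairs of samples, across tested genes on the log2 scale, was 0.983 to 0.991 in Lck-cre, against 0.985 to 0.992 in controls. The limma test covered 12337 genes and called 25.8% of them at an adjusted p of 0.05, with 15.4% higher and 10.4% lower in Lck-cre. Of the 10 members, 2 rose (Sting1 and Cgas), 1 fell (Irf3) and 7 were not called. A share of 3 in 10 is near that of all tested genes. The median log2 change of the 10 members was 0.041, against 0.012 over all tested genes.

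**Figure D1:**
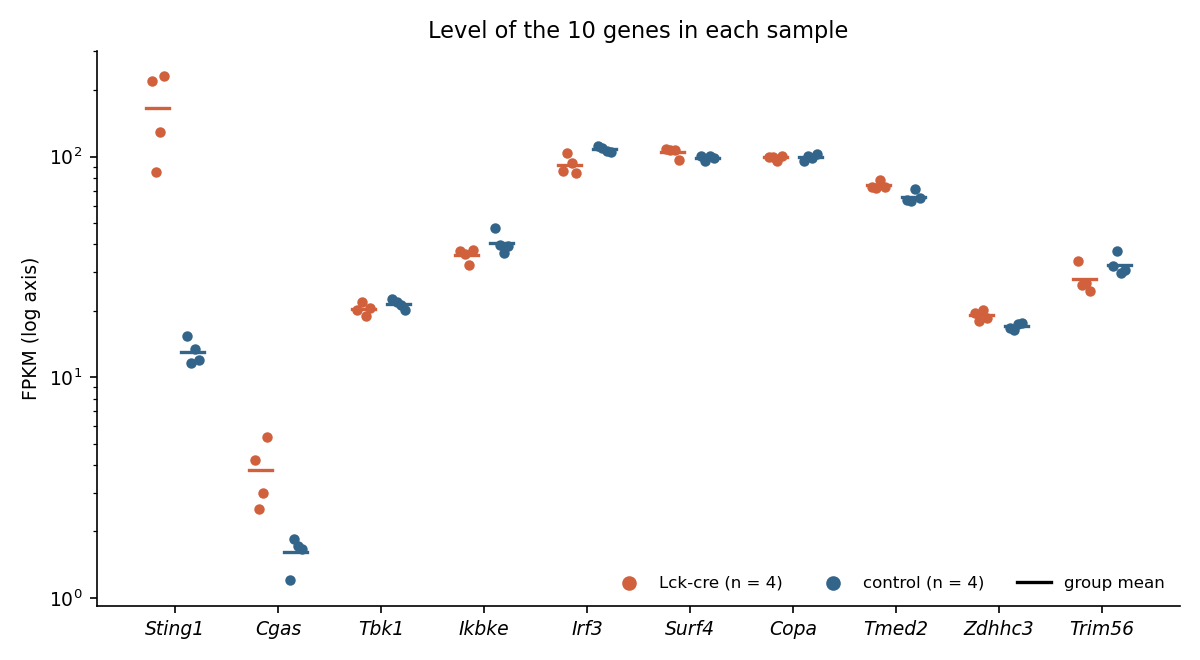
FPKM (log axis) of the 10 genes in each sample, with Lck-cre samples left of controls and a bar at each group mean. Sting1 lies at 85.4 to 232 FPKM in Lck-cre, against 11.6 to 15.3 FPKM in controls, while Copa lies at 96.1 to 101 and 95.4 to 103 FPKM.

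Sting1, the receptor, is the gene that the N153S allele carries, so its change was planned as a check of the labels. It had 221, 85.4, 130 and 232 FPKM in Lck-cre replicates 5 to 8, against 15.3, 11.6, 13.4 and 11.9 FPKM in control replicates 1 to 4. All Lck-cre samples lay far above all controls, and replicates 5 and 8 lay well above 6 and 7. The log2 change was 3.52 (SE 0.25, adjusted p = 0.00213 by limma), larger in size than that of 99.99% of tested genes. The level moved to rank 388 of 12337 tested genes in Lck-cre, against rank 5955 in the controls. Its coefficient of variation was 42.6% in Lck-cre and 13.0% in the controls, against medians over tested genes of 9.46% in Lck-cre and 9.08% in the controls. FPKM counts fragments of the whole gene, so the N153S and wild-type transcripts cannot be told apart.

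Cgas, the sensor that makes the ligand of STING, rose with Sting1 but stayed the lowest of the 10 genes in both groups. It had 4.23, 2.52, 2.998 and 5.38 FPKM in Lck-cre replicates 5 to 8, against 1.1995, 1.86, 1.72 and 1.66 FPKM in control replicates 1 to 4. Every Lck-cre sample was above every control, as in 17.1% of tested genes. Of the 10 members, 4 were higher in FPKM without overlap (Sting1, Cgas, Tmed2 and Zdhhc3) and 1 lower (Irf3). In either direction, 29.4% of all tested genes did not overlap. With TPM values Tmed2 and Zdhhc3 overlapped between groups. The mean was 3.78 ± 1.29 FPKM in Lck-cre and 1.61 ± 0.285 FPKM in the controls (SD, n = 4 each), with a log2 change of 0.98 (95% confidence interval 0.51 to 1.46, adjusted p = 0.0138 by limma). Mean coverage per base of Cgas was 29.9, 18.1, 22.8 and 37.9 in Lck-cre replicates 5 to 8, against 8.98, 10.7, 11.9 and 11.4 in control replicates 1 to 4, so the low level still rested on several reads per base. The call ended without control replicate 1 (adjusted p = 0.0637 by limma) or Lck-cre replicate 5 (0.0648), the 2 females, and with no filter on low values (0.0675).

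Cgas and Sting1 are expressed in many immune cells, and markers of other cell types moved with them. Summed FPKM of 10 macrophage and monocyte markers was 8.04 to 14.4 in Lck-cre, against 5.53 to 6.77 in controls. Of these, 5 of 10 were higher in every Lck-cre sample (Cd68, Lyz2, C1qb, C1qc and Csf1r). The share was 17.1% among tested genes, and none was computed for genes below the filter. Only Cd68 was tested, and Lyz2, C1qb and C1qc reached at most 0.951, 0.640 and 0.751 FPKM in Lck-cre, and 0.185, 0.0929 and 0.129 FPKM in controls. Cd68 carried most of this sum, at 7.15 to 11.4 FPKM in Lck-cre, against 5.11 to 6.32 FPKM in controls, and rose (adjusted p = 0.0304 by limma). Adgre1, Csf1r, Fcgr1 and Mertk stayed under 0.1 FPKM in all samples. For 10 dendritic cell markers the sum was 48.5 to 81.6 in Lck-cre, against 28.8 to 38.9 in controls. Most of it was Bst2, which interferon also induces (41.3 to 65.6 FPKM in Lck-cre, 25.1 to 35.8 FPKM in controls). Of these 10 markers, 6 were higher in every Lck-cre sample (Bst2, H2-Aa, H2-Ab1, Cd74, Clec9a and Siglech). The 17.1% of tested genes is no background for Clec9a and Siglech, which were not tested. The 4 that were tested, Bst2 and the MHC class II genes H2-Aa, H2-Ab1 and Cd74, all rose by limma, against 15.4% of all tested genes. H2-Aa reached at most 0.509 FPKM in controls, so it met the filter through its Lck-cre samples only. Cd74 met the filter almost wholly in the same way. For H2-Aa and Cd74 the rise was thus partly set by the filter, and 15.4% is no clean background. Bst2 and H2-Ab1 lay above the filter level in every sample of both groups. Clec9a (at most 0.163 FPKM in Lck-cre, 0 in controls) and Siglech (at most 0.955 FPKM in Lck-cre, 0.0770 FPKM in controls) lay below the filter. Cd74 had 1.89 to 6.28 FPKM in Lck-cre, against 0.778 to 1.01 FPKM in controls, while Zbtb46 and Xcr1 stayed under 0.1 FPKM. Of 8 NK and innate lymphoid markers the sum was 37.0 to 90.9 in Lck-cre, against 18.7 to 29.5 in controls, most of it Gzma (34.9 to 88.8 FPKM in Lck-cre, 16.3 to 26.7 FPKM in controls). Nkg7 was also higher in every Lck-cre sample (0.144 to 0.961 FPKM in Lck-cre, at most 0.0767 FPKM in controls). Prf1 went the other way, at 0.463 to 1.55 FPKM in Lck-cre, against 1.48 to 2.47 FPKM in controls (adjusted p = 0.0692 by limma). Tbx21 overlapped between groups, Klrb1c, Klrk1 and Eomes stayed under 0.1 FPKM, and Ncr1 was listed at 0 in every sample. Gamma delta T cell markers summed to 50.8 to 94.9 FPKM in Lck-cre, against 29.8 to 31.2 FPKM in controls. By limma 3 of 5 rose (Trdc, Trgc1 and Trgc2), against 15.4% of all tested genes, with Zbtb16 under 0.1 FPKM. In these 4 lists the Lck-cre samples stood in the order of their Sting1 level, 8 above 5 above 7 above 6. Replicates 5 and 7 were nearly level in the macrophage list (9.17 and 9.15 FPKM). Cd68, Bst2 and Gzma carried most of the macrophage, dendritic and NK sums, and 8.41% of single tested genes had this order. The part of cells of these types in the change of Cgas or Sting1 was not tested.

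Markers of the DP stage itself were present at high levels but lower. Their sum over 9 genes was 4349 to 5615 FPKM in Lck-cre, against 5622 to 6031 FPKM in controls. The Lck-cre sums stood in the reverse order of Sting1, as did 9.33% of single tested genes. Rag1, Rag2 and Cd4 were the 3 of these 9 that fell by limma, against 10.4% of all tested genes. Double negative stage markers summed to 48.2 to 70.3 FPKM in Lck-cre, against 34.7 to 47.1 FPKM in controls. Most of this sum was Ptcra (36.6 to 49.2 FPKM in Lck-cre, 25.7 to 33.6 FPKM in controls), which rose by limma, as did Dtx1. Cd44 was lower in every Lck-cre sample (1.45 to 2.19 FPKM in Lck-cre, 2.26 to 2.93 FPKM in controls), and Kit, Il2ra and Hes1 overlapped. The remaining lists overlapped between groups. B cell markers summed to 7.88 to 15.6 FPKM in Lck-cre, against 12.4 to 16.9 FPKM in controls. Mature single positive T cell markers summed to 61.1 to 72.8 FPKM in Lck-cre, against 71.5 to 76.0 FPKM in controls, and epithelial and stromal markers to 54.9 to 62.1 FPKM in Lck-cre, against 47.0 to 58.5 FPKM in controls. Most of the epithelial and stromal sum was Pecam1 (49.9 to 57.4 FPKM in Lck-cre, 43.5 to 52.8 FPKM in controls), while Krt5 and Foxn1 stayed under 0.1 FPKM, Pdgfra was listed at 0, and Krt8 was higher in every Lck-cre sample (0.162 to 0.238 FPKM in Lck-cre, 0.0378 to 0.110 FPKM in controls). Erythroid markers reached at most 0.350 FPKM in Lck-cre and 0.123 FPKM in controls. In sorted bulk samples, fewer cells of a type and less RNA per cell cannot be told apart.

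**Figure D2:**
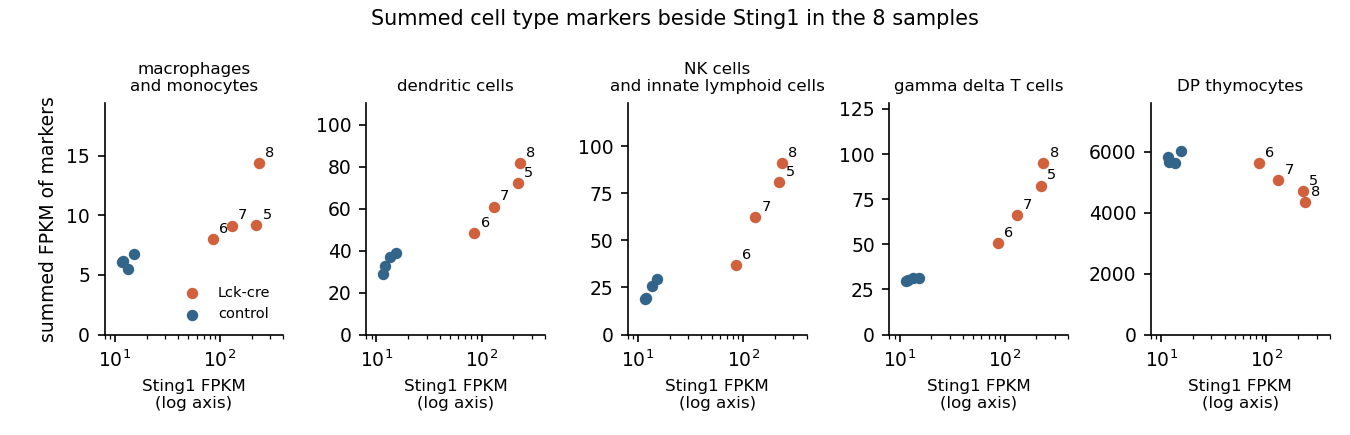
Summed FPKM of the markers of 5 cell types against Sting1 FPKM (log axis) in each sample, with the replicate number beside each Lck-cre point. Macrophage, dendritic, NK and gamma delta T cell markers stand in the order of Sting1 in Lck-cre, and DP markers in the reverse order. Macrophage markers are nearly level in replicates 5 and 7 (9.17 and 9.15 FPKM).

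Of the kinases, Tbk1, which phosphorylates IRF3, had 20.2, 21.95, 19.1 and 20.6 FPKM in Lck-cre replicates 5 to 8, against 22.5, 21.9, 21.3 and 20.2 FPKM in control replicates 1 to 4. The ranges overlapped, with Lck-cre replicate 7 below every control and control replicate 1 above every Lck-cre sample. The interval of the difference was a fold of 0.859 to 1.06 (adjusted p = 0.468 by limma). Its relative Ikbke, which encodes IKK epsilon and can act beside TBK1, had 37.3, 36.2, 32.3 and 37.7 FPKM in Lck-cre replicates 5 to 8, against 47.5, 39.6, 36.8 and 39.5 FPKM in control replicates 1 to 4. Only control replicate 3 reached into the Lck-cre range. Its log2 change was -0.18 (95% confidence interval -0.34 to -0.02, adjusted p = 0.0938 by limma), and with TPM values, under which 27.3% of all tested genes were called, Ikbke fell by 0.26 (adjusted p = 0.0412). Per kilobase, Ikbke exceeded Tbk1 in every sample, by 1.65 to 1.84 times in Lck-cre, against 1.73 to 2.11 times in controls, ranges that overlap. The listed span of Ikbke overlaps the opposite-strand gene Gm28913 (at most 7.02 FPKM), whose reads cannot be told apart from those of Ikbke if the library was unstranded.

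Irf3, the transcription factor that TBK1 activates, was abundant and fell slightly. It had 86.5, 104, 93.8 and 84.2 FPKM in Lck-cre replicates 5 to 8, against 111, 110, 107 and 105 FPKM in control replicates 1 to 4. Every Lck-cre sample was below every control, as in 12.3% of tested genes, but replicate 6 by little. The log2 change was -0.24 (95% confidence interval -0.41 to -0.07, adjusted p = 0.0474 by limma). Control samples varied by 2.69% around their mean of 108 FPKM, at percentile 4.17 of tested genes, and Lck-cre samples by 9.59% around 92.0 FPKM. The call rested close to the threshold: it ended without control replicate 1, 2, 3 or 4 (adjusted p of 0.174, 0.113, 0.0681 and 0.0765 by limma), without Lck-cre replicate 5, 7 or 8 (0.174, 0.0888 and 0.107), with coverage in place of FPKM (0.0858) and with no filter (0.109). Bcl2l12, on the opposite strand, overlaps 1065 bases of the listed span of Irf3 and had means of 30.8 FPKM in Lck-cre and 33.8 FPKM in the controls. Opposite-strand overlaps were also listed for Copa with Ncstn (56.1 FPKM in Lck-cre, 64.2 FPKM in controls), Surf4 with Surf2 (12.1 FPKM in Lck-cre, 10.3 FPKM in controls), Cgas with Gm8093 (at most 0.233 FPKM) and Zdhhc3 with Tgm4 (at most 0.927 FPKM), while Sting1, Tbk1, Tmed2 and Trim56 overlapped no listed gene.

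The upstream windows of Cgas and Irf3 are shown because these 2 genes changed in opposite directions. Each is the RefSeq window on GRCm38.p6 from 250 bases before to 50 bases after the annotated start, written 5′ to 3′ on the strand of the gene, with Cgas on the minus strand at chr9:78443188-78443487 and Irf3 on the plus strand at chr7:44997398-44997697. Capitals mark a match, read on the opposite strand, to a loose kappaB pattern in Cgas (GGGA, any 4 bases, CC) and to the GC box GGGCGG in Irf3.
Cgas: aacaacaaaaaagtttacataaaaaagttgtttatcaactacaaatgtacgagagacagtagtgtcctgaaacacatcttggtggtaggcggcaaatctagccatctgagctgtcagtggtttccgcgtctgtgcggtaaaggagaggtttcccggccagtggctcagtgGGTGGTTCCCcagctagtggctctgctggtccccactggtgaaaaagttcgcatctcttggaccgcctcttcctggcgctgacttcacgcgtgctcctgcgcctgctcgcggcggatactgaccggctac
Irf3: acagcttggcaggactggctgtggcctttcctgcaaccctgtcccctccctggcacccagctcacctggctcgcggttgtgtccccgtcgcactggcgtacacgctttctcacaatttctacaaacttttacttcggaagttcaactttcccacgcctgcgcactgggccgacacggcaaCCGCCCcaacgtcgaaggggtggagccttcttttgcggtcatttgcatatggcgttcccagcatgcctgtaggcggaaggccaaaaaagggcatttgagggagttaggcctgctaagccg
Both strands were searched in the windows of 8 members, and Sting1 and Tmed2 had none here. The core of the interferon-stimulated response element, GAAANNGAA, was found in 0 of 8 windows and in 8.56% of all windows of this length. The kappaB consensus was found in 0 of 8 and in 8.46%, while the looser pattern, which includes part of the consensus matches, was found in 2 of 8 (Cgas and Zdhhc3) and in 20.7%, so the match in Cgas depends on how strictly the pattern is read. The GC box was found in 5 of 8 (Tbk1, Irf3, Surf4, Copa and Zdhhc3) and in 35.7%. TTCNNNGAA, a STAT pattern, and CCAAT were each found in 0 of 8, and in 8.3% and 37.4% of all windows. A match describes the letters only.

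The 3 genes of ER and Golgi traffic were abundant and varied little. Surf4, a cargo receptor that with COPI returns STING to the ER, had 108, 108, 107 and 96.2 FPKM in Lck-cre replicates 5 to 8, against 100.4, 95.6, 100.7 and 98.1 FPKM in control replicates 1 to 4. Replicate 8 stood apart from the other Lck-cre samples and lay within the controls. The interval of the difference was a fold of 0.965 to 1.17 (adjusted p = 0.312 by limma). Copa, the alpha subunit of the COPI coat, whose mutations in humans cause an interferon-driven disease through STING, had 100.2, 99.6, 96.1 and 101 FPKM in Lck-cre replicates 5 to 8, against 95.4, 100.4, 99.0 and 103 FPKM in control replicates 1 to 4. The Lck-cre values all lay inside the range of the controls, and the interval of its difference was a fold of 0.916 to 1.09 (adjusted p = 0.965 by limma).

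Tmed2, a p24 cargo receptor reported to act on the dimerisation and traffic of STING, had 72.8, 72.0, 78.6 and 72.9 FPKM in Lck-cre replicates 5 to 8, against 63.9, 63.0, 71.3 and 64.9 FPKM in control replicates 1 to 4. The groups did not overlap, with control replicate 3 close to the lowest Lck-cre value. Its log2 change of 0.17 (95% confidence interval 0.03 to 0.31) had an adjusted p of 0.0696 by limma, and Tmed2 passed without control replicate 3 (0.0436) and with coverage in place of FPKM (0.0418).

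Zdhhc3, a Golgi acyltransferase of the DHHC family that palmitoylates STING, had 19.6, 18.0, 20.2 and 18.5 FPKM in Lck-cre replicates 5 to 8, against 16.8, 16.4, 17.5 and 17.6 FPKM in control replicates 1 to 4. All Lck-cre FPKM values were above all controls by a small step. In TPM the groups overlapped (40.4 to 44.8 in Lck-cre, 39.4 to 42.0 in controls). The log2 change of 0.15 (95% confidence interval 0.01 to 0.30) was not called (adjusted p = 0.103 by limma). Trim56, a ubiquitin ligase reported to modify STING and cGAS, had 33.7, 26.1, 26.7 and 24.7 FPKM in Lck-cre replicates 5 to 8, against 31.9, 37.5, 29.7 and 30.6 FPKM in control replicates 1 to 4. Lck-cre replicate 5, the female, lay among the controls and the 3 males below all of them. Its log2 change was -0.22 (95% confidence interval -0.45 to 0.00, adjusted p = 0.123 by limma).

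**Figure D3:**
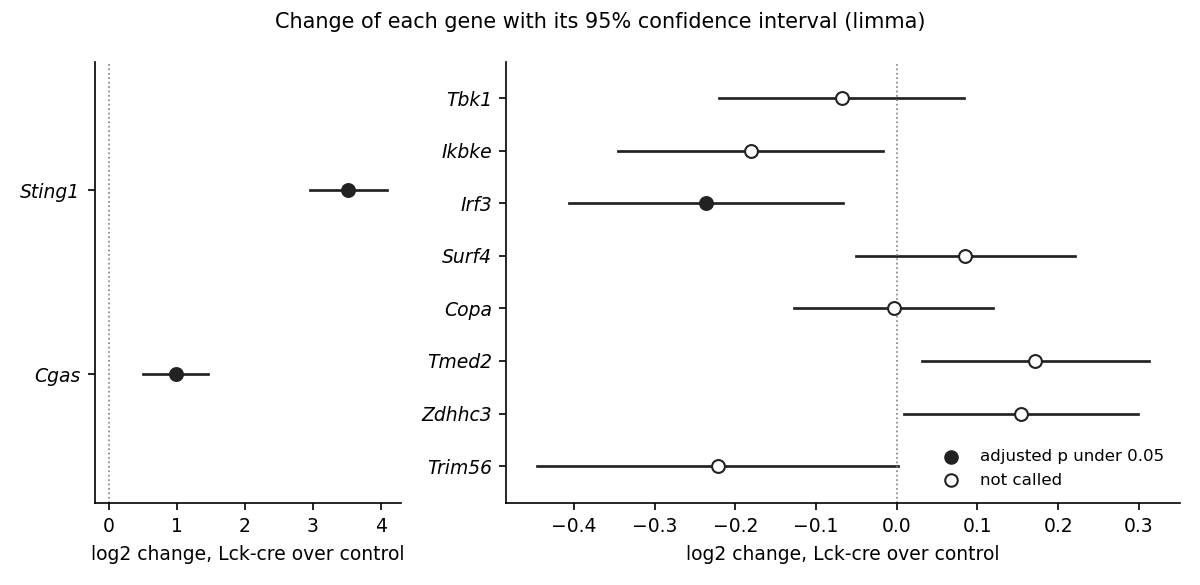
Log2 change of each gene in Lck-cre over control with its 95% confidence interval (limma, n = 4 each), Sting1 and Cgas on a wider axis at the left. Filled points passed an adjusted p of 0.05, which were Sting1, Cgas and Irf3.

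In order of mean level per kilobase, the Lck-cre samples had Sting1 first at 167 ± 71.2 FPKM, then Surf4, Copa, Irf3, Tmed2, Ikbke, Trim56, Tbk1, Zdhhc3 and Cgas. The controls had Irf3 first at 108 ± 2.91 FPKM, then Copa, Surf4, Tmed2, Ikbke, Trim56, Tbk1, Zdhhc3, Sting1 at 13.1 ± 1.70 FPKM and Cgas (SD, n = 4 each). Sting1 thus stood 9th of 10 in the controls and 1st in Lck-cre, and the other 9 kept their order apart from Irf3, Copa and Surf4. Neighbours whose ranges overlapped were Sting1 and Surf4, Surf4 and Copa, Copa and Irf3, Ikbke and Trim56, and Tbk1 and Zdhhc3 in Lck-cre, and Copa and Surf4, and Ikbke and Trim56 in the controls. In Lck-cre replicate 6, the sample with the least Sting1, its level was below those of Irf3, Surf4 and Copa.

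Set beside Sting1 sample by sample, Cgas kept the same order among the 4 Lck-cre samples (replicate 8 highest, then 5, 7 and 6) and Irf3 the reverse order. Of all tested genes, 8.41% had the order of Sting1 and 9.33% the reverse, so 1 member in each direction beside Sting1 itself is close to that background. The other 7 members followed neither order. From the lowest to the highest Sting1 level in Lck-cre, Sting1 differed 2.72-fold and Cgas 2.13-fold, while Tbk1, Ikbke, Surf4, Copa, Tmed2 and Zdhhc3 each stayed within a range of 1.17-fold over the 4 samples. In the controls, where Sting1 spanned 11.6 to 15.3 FPKM, Cgas was lowest in the sample with the most Sting1 (replicate 1).

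The ratio of Sting1 to Surf4, Copa, Zdhhc3 and Tbk1 was higher in every Lck-cre sample than in the controls. Those genes were not called, so the ratios restate the rise of Sting1 and are no separate result. Per kilobase, Sting1 stood at 0.794 to 2.41 times Surf4 in Lck-cre, against 0.121 to 0.152 times in controls. Relative to Copa the ratio was 0.857 to 2.30 in Lck-cre, against 0.115 to 0.160 in controls. To Zdhhc3 it was 4.74 to 12.6 in Lck-cre, against 0.676 to 0.911 in controls, and to Tbk1 it was 3.89 to 11.3 in Lck-cre, against 0.529 to 0.679 in controls. These ratios are transcript levels and say nothing of protein.

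**Figure D4:**
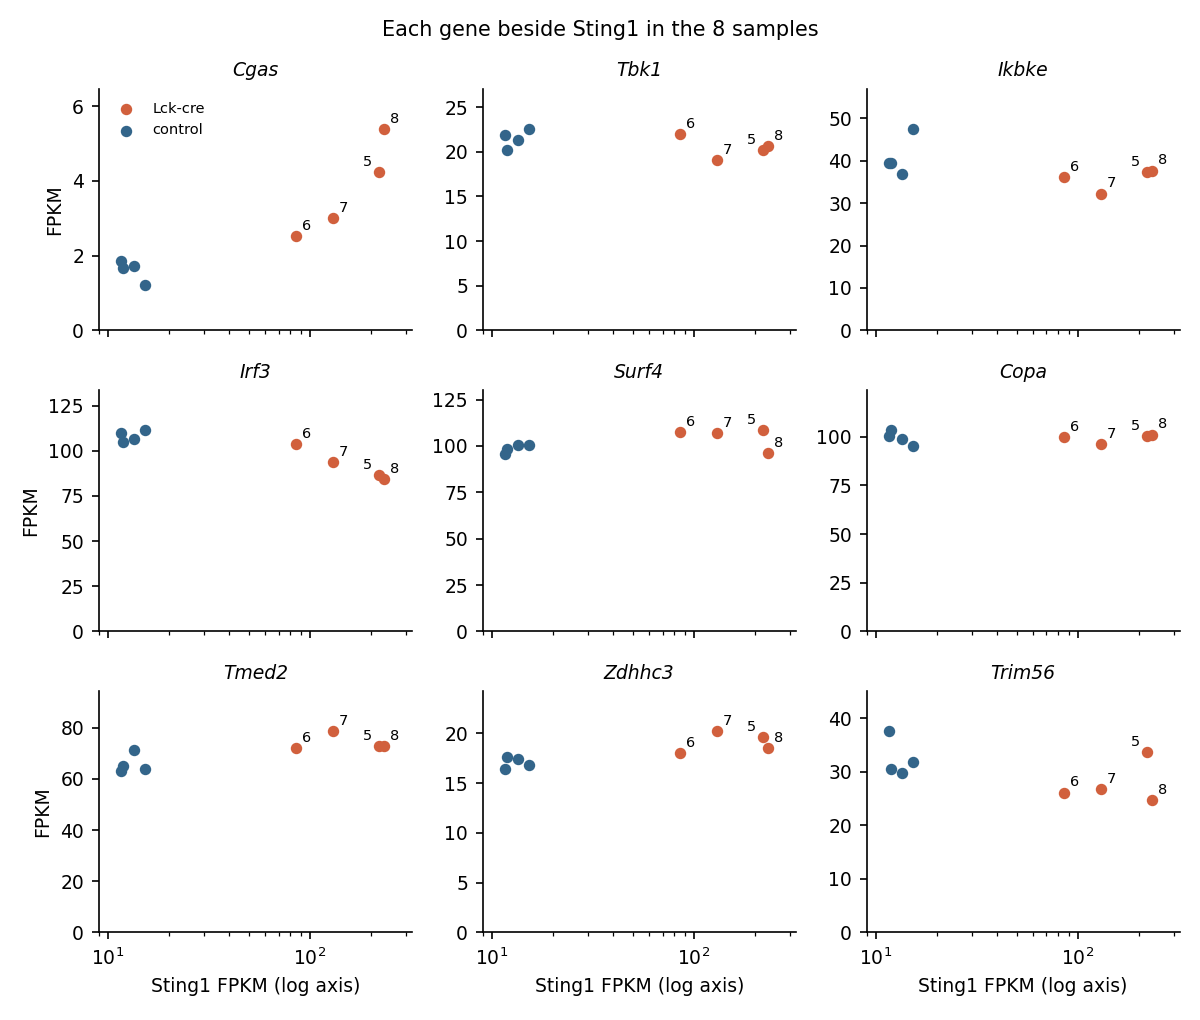
FPKM of each of 9 genes against Sting1 FPKM (log axis) in the 8 samples, Lck-cre points numbered by replicate. Cgas climbs from 2.52 FPKM in replicate 6 to 5.38 FPKM in replicate 8 and Irf3 runs from 104 to 84.2 FPKM, while Copa stays between 95.4 and 103 FPKM in all samples.

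The deposited coverage column gives a second readout, the mean depth per base of a gene. Coverage divided by FPKM was set against the commonest ratio of each sample (7.65 to 7.86 in Lck-cre, against 7.53 to 7.89 in controls). Over all samples the members ran from Zdhhc3 at 24.3% to 27.3% to Surf4 at 95.3% to 97.5%. For Sting1 the share was 65.1%, 79.6%, 75.8% and 64.1% in Lck-cre replicates 5 to 8, against 76.7%, 72.6%, 73.4% and 73.3% in control replicates 1 to 4. The 2 Lck-cre samples with the most Sting1 lay below all controls, and replicate 6 lay above them. Groups did not overlap for Copa (38.2% to 38.5% in Lck-cre, 37.4% to 38.1% in the controls) and Tmed2 (53.7% to 54.2% in Lck-cre, 52.9% to 53.2% in the controls), which is 2 of 10 members against 6.73% of all genes with this measure, and no member was lower without overlap, against 1.85%. Whether the use of transcripts differed was not tested.

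By distance between profiles (root mean square difference of log2 values over the 8 samples, each gene centred on its control mean), the 5 tested genes nearest to Sting1 were Plac8, Trgc2, Trgj2, Tesc and Trgv2, at 0.61, 0.76, 0.78, 0.80 and 0.91. Trgc2 is 1 of the gamma delta T cell markers given above, and Trgj2 and Trgv2 are segments of the same T cell receptor gamma locus. The 5 genes were picked for this likeness, which is a description only.

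Around the members, 11 lists of other pathway genes held 108 tested genes, of which 12 rose and 8 fell. That is 18.5% called, against 25.8% of all tested genes, with a median log2 change of 0.005, against 0.012. Without control replicate 1 or without Lck-cre replicate 5, the females, 1 of these 108 was called (Rnaseh2b). Without control replicate 2 or 4 the number was 4 and 9, without Lck-cre replicate 7 or 6 it was 10 and 30, and with no filter it was 6 of 125. With either female left out, the model with sex as a term compares 3 males with 3 males.

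Of 14 tested genes of COPII-dependent ER exit, the route that carries STING forward, 2 rose and 2 fell, with a list median log2 change of 0.017. Over all tested genes 15.4% rose and 10.4% fell. The coat subunits Sec13 (76.0 ± 7.55 FPKM in Lck-cre and 62.0 ± 2.27 FPKM in the controls) and Sec23b (33.2 ± 1.53 FPKM in Lck-cre, 27.4 ± 0.937 FPKM in controls) rose, and the scaffold Sec16a (15.2 ± 0.837 FPKM in Lck-cre, 19.9 ± 2.15 FPKM in controls) and the cargo adaptor Sec24c (86.7 ± 3.84 FPKM in Lck-cre, 102 ± 6.46 FPKM in controls) fell (SD, n = 4 each). The COPI coat and its retrograde partners had 0 of 13 called in either direction by limma, as for Copa itself, and the smallest p was that of the KDEL receptor gene Kdelr2 (14.1 ± 0.971 FPKM in Lck-cre, 12.0 ± 0.819 FPKM in the controls, adjusted p = 0.0564). At an unadjusted p under 0.05, 1 of these 13 passed, against 41.4% of all tested genes, and the list median was 0.001. Among p24 cargo receptors other than Tmed2, 3 of 8 rose and 0 fell by limma, against 15.4% and 10.4% of all tested genes. The list median was 0.144. Tmed1 (2.70 ± 0.308 FPKM in Lck-cre, 1.87 ± 0.130 FPKM in controls), Tmed3 (7.75 ± 1.16 FPKM in Lck-cre, 5.78 ± 0.623 FPKM in controls) and Tmed10 (77.7 ± 5.47 FPKM in Lck-cre, 66.0 ± 1.88 FPKM in controls) were higher in every Lck-cre sample. With TPM values 1 of the 8 rose, and 0 did in males only, with no filter, without control replicate 1, 2 or 4, or without Lck-cre replicate 5 or 7 (limma).

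Regulators close to STING changed in few cases, where 15.4% of all tested genes rose and 10.4% fell. Of 4 genes of ER retention and export (median -0.038), Ssr2, a subunit of the ER translocon-associated complex, rose to 127 ± 7.06 FPKM in Lck-cre, against 106 ± 6.96 FPKM in the controls, a call that held in 10 of 19 alternative settings. Of 18 other ZDHHC acyltransferases (median -0.065) 2 fell, Zdhhc9 (10.3 ± 1.12 FPKM in Lck-cre, 13.4 ± 0.924 FPKM in controls) and Zdhhc17 (10.5 ± 0.591 FPKM in Lck-cre, 13.2 ± 1.10 FPKM in controls). Of 11 ubiquitin ligases and deubiquitinases (median 0.134) 0 were called by limma and 2 passed an unadjusted p of 0.05, where 41.4% of all tested genes did. The smaller p was that of Usp18, an interferon-induced protease, at 11.9, 3.29, 6.72 and 16.3 FPKM in Lck-cre replicates 5 to 8, against 5.84, 2.21, 3.20 and 3.47 FPKM in control replicates 1 to 4 (adjusted p = 0.0545). Post-Golgi sorting and degradation genes (median -0.088) had 1 of 12 called, the autophagy protein gene Atg9a, which fell to 17.4 ± 1.98 FPKM, against 21.6 ± 1.496 FPKM in the controls.

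Of 8 partners of the kinases, 3 fell and 0 rose by limma, and the list median was -0.180. Over all tested genes 10.4% fell, and the count of 3 did not hold, since 0 were called in males only, without control replicate 1 or 2, or without Lck-cre replicate 5. Azi2, an adaptor of TBK1, had 27.5, 28.2, 27.6 and 29.1 FPKM in Lck-cre replicates 5 to 8, against 33.9, 32.6, 31.2 and 34.0 FPKM in control replicates 1 to 4. Sike1, a suppressor of IKK epsilon, had 7.89, 8.53, 7.68 and 6.40 FPKM in Lck-cre replicates 5 to 8, against 11.4, 10.9, 9.83 and 8.96 FPKM in control replicates 1 to 4. Neither gene overlapped between groups. Ikbkb, the IKK beta gene of NF-kB signalling, also fell (39.1 ± 1.65 FPKM in Lck-cre, 46.3 ± 3.996 FPKM in the controls, adjusted p = 0.0472 by limma). Tbkbp1 and Optn lay below the filter. Of 5 other sensors and adaptors upstream of TBK1 (median -0.001), 0 were called by limma and 2 passed an unadjusted p of 0.05, a share near the 41.4% of all tested genes, with the smaller p that of the RNA sensor gene Ifih1 (1.81 ± 0.621 FPKM in Lck-cre, 1.06 ± 0.194 FPKM in the controls, adjusted p = 0.0569).

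Among genes of DNA turnover and cyclic GMP-AMP handling, 5 of 11 rose and 0 fell by limma, with a list median of 0.300, against 15.4% and 10.4% of all tested genes. The count that rose was 1 of 11 without control replicate 1 or 2, without Lck-cre replicate 5, in males only, and 1 of 16 with no filter. Rnaseh2b, a subunit of the nuclease that removes ribonucleotides from DNA, had 28.5, 27.2, 32.1 and 31.1 FPKM in Lck-cre replicates 5 to 8, against 17.9, 19.7, 21.9 and 20.7 FPKM in control replicates 1 to 4 (log2 change 0.56, SE 0.07, adjusted p = 0.00723). Rnaseh2b passed in 19 of 19 alternative settings. Slc19a1, a folate carrier that also takes up cyclic dinucleotides in human cells, rose to 8.63 ± 0.406 FPKM in Lck-cre, against 6.58 ± 0.632 FPKM in the controls. Rnaseh2a, Banf1 and G3bp1 were the other 3 that rose. The DNA exonuclease Trex1 (0.5004 to 0.987 FPKM in Lck-cre, 0.702 to 1.34 FPKM in the controls) and Samhd1 (at most 0.216 FPKM in Lck-cre and 0.143 FPKM in controls) lay below the filter.

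Of 10 interferon and IRF3 target genes 4 were tested (median 0.728). Against 15.4% of all tested genes, 1 of the 4 rose, the ubiquitin-like modifier gene Isg15. It had 23.7, 7.92, 16.6 and 24.7 FPKM in Lck-cre replicates 5 to 8, against 8.19, 4.52, 5.54 and 5.58 FPKM in control replicates 1 to 4 (adjusted p = 0.0107 by limma, called in 14 of 19 alternative settings). Lck-cre replicate 6 lay inside the range of the controls and was also lowest for Sting1. Cxcl10, a chemokine induced through IRF3, was below the filter and is named because its values stood out: it had 7.09, 0.907, 1.71 and 6.65 FPKM in Lck-cre replicates 5 to 8, against 0.156, 0.0468, 0.0334 and 0.101 FPKM in control replicates 1 to 4. The other tested genes of this list were not called by limma: Ifit2 (log2 change 0.12, adjusted p = 0.290), Rsad2 (0.63, 0.133) and Oasl1 (0.83, 0.0650). Ccl5, Ifit1 and Ifit3 lay below the filter and overlapped between groups. Ifnb1 and Ifna4 were listed at 0 in all samples.

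**Figure D5:**
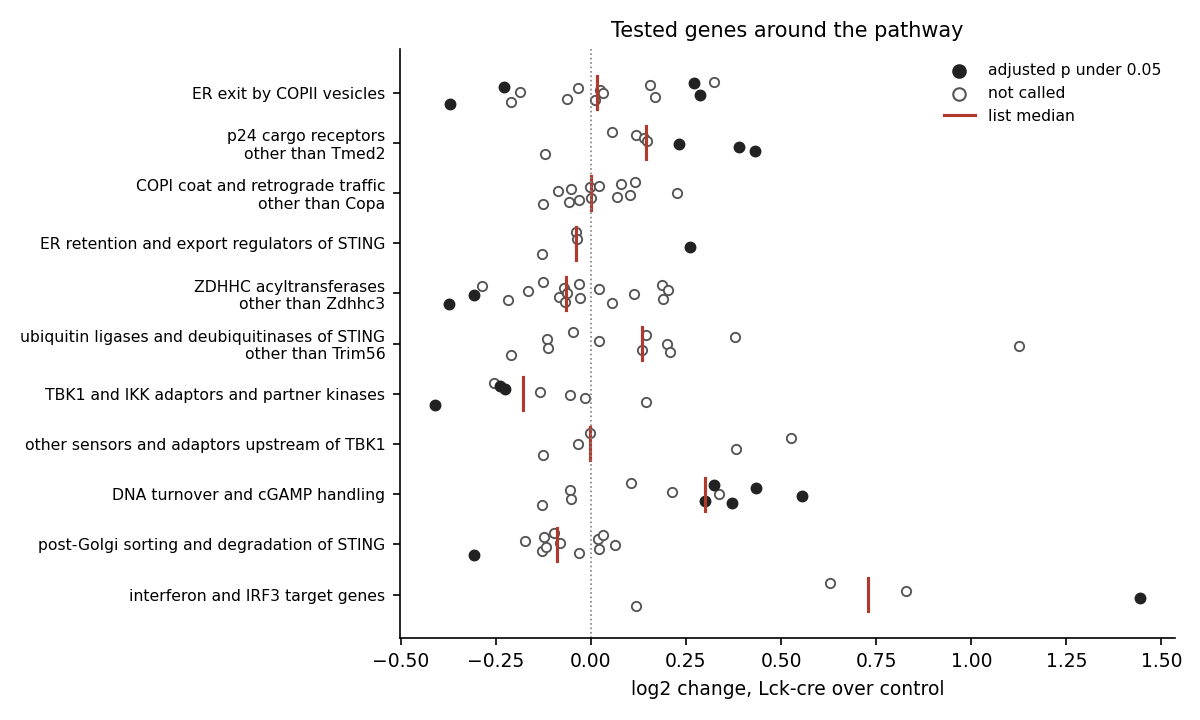
Log2 change in Lck-cre over control of each tested gene in 11 pathway lists (limma, n = 4 each), filled where the adjusted p was under 0.05, with a line at each list median. The 3 called TBK1 and IKK partners lie left of 0, and the 3 called p24 receptors and 5 called DNA turnover genes lie right of it.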

How the data were processed

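Total RNA of sorted DP thymocytes was measured in 8 samples, 1 deposited table each. Per the submitters' processing notes, HISAT and Bowtie2 were used, while roles, versions, genome build, annotation, quantifier and strandedness are not stated. The deposited FPKM and TPM values and the coverage signal were computed by the authors, per the file headers. The tables hold no counts. Entries that share a gene ID were summed, and where genes share a symbol the one with the highest mean was taken.

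Values were tested after log2(FPKM + 0.5) where 4 or more samples reached an FPKM of 1. The limma model (3.58.1, R 4.3.3) held genotype and sex with a trended prior, two-sided, with Benjamini-Hochberg adjustment over all 12337 genes. The fit was checked on simulated data. Fold changes on this scale understate those of low genes. Python 3.11.15, pandas 2.3.3 and NumPy 2.4.6 made the summaries. The commonest coverage per FPKM was taken among genes with an FPKM of at least 1, where 21.7% to 22.5% lay within 0.2% of it.

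The members and lists were chosen with earlier results of these data known. Named genes are the members, up to 2 rising and 2 falling called genes per pathway list (or the 1 with the smallest p), the 5 nearest to Sting1 and genes overlapping a member. Tmed3, Ikbkb, Rnaseh2a, Banf1, G3bp1, Cxcl10, Trex1, Samhd1, Tbkbp1 and Optn were named after their values were seen. The same holds for Ifit1, Ifit2, Ifit3, Rsad2, Oasl1 and Ccl5. Of 130 list entries 129 were found, Steep1 was not, and 76 of 76 markers were found. The looser kappaB pattern was searched first, and the consensus and the response element core were added after its matches were seen. The alternatives were TPM, quantile and median-of-ratios scaling, coverage, no filter, a mean FPKM of at least 1, a pseudocount of 0.1 or 1, no sex term, males only, an adjusted p under 0.01, and each sample left out.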

Additional observations from a re-analysis of the deposited data

Results flagged for a closer look

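Of 20 groups of 4 values examined (10 genes in 2 groups), 2 held a sample far from the other 3, and chance flags about 1 in 20 groups. Surf4 in Lck-cre replicate 8 lay at 96.2 FPKM, below the other Lck-cre samples at 107 to 108 FPKM. Tmed2 in Lck-cre replicate 7 lay at 78.6 FPKM, above the other Lck-cre samples at 72.0 to 72.9 FPKM.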

How the results depend on the processing

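The count of called genes, 3180 with FPKM, was 1056 with no filter, 652 in males only and 512 at an adjusted p under 0.01. With 1 sample left out it was 647 to 3889. It was 653 without control replicate 1 and 647 without Lck-cre replicate 5, the females, against 1256 to 3889 with 1 male left out. With either female left out, only the males inform the genotype difference, as in males only. Whether sample number or the females themselves account for the lower counts was not tested. TPM values turned the balance of directions to 1300 up and 2067 down, against 1901 and 1279. Sting1 was called under all 19 alternatives, with log2 changes of 3.27 to 3.78 when a sample was left out. For Cgas the call was lost with no filter (0.98, adjusted p = 0.0675 by limma), in males only (0.82, 0.0644) and at the stricter threshold (0.98), and the range with a sample left out was 0.81 to 1.15. Irf3 lost its call with coverage (-0.22), with no filter (-0.24), in males only (-0.19) and at the stricter threshold (-0.24), with -0.30 to -0.19 when a sample was left out. Ikbke was called with TPM only (-0.26) and ranged from -0.22 to -0.13 with a sample left out. Tmed2 was called with coverage (0.19) and ranged from 0.15 to 0.21 with a sample left out. Copa, at -0.004, changed sign with coverage (0.014) and without control replicate 4 (0.013) or Lck-cre replicate 7 (0.015), and ranged from -0.028 to 0.015 with a sample left out. Tbk1, Surf4, Zdhhc3 and Trim56 kept their direction and stayed uncalled under all 19. The causes were not tested. No paired analysis was possible because the groups share no replicate numbers. The depth is unknown, so what it limits could not be given.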
